A study of Rattus norvegicus with 2 samples.

Results

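S100a8, S100a9 and RatNP-3b are 3 of the 32623 genes counted in single cells of the rat cochlear duct. They were chosen by their measured levels, which were lower in the library of postnatal day 7 (P7) than in that of postnatal day 1 (P1), so that their own values at both ages are given here as a description. Each symbol matched 1 row in both libraries (S100a8, ENSRNOG00000011557; S100a9, ENSRNOG00000011483; RatNP-3b, ENSRNOG00000038135). The libraries came from Sprague-Dawley rats, with no treatment named, 1 library per age, each made from the pooled cochlear tissue of several animals, so no value below has a replicate and no test between the ages was possible.

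S100a8 and S100a9 encode small calcium-binding proteins that pair to form calprotectin, the most abundant protein of the neutrophil cytosol, which withholds metal ions from microbes and acts as an alarm signal through receptors such as Tlr4 and Ager. They are thus neutrophil genes but not granule proteins in the strict sense. RatNP-3b encodes an alpha-defensin, a short antimicrobial peptide that neutrophil precursors store in their primary granules early in maturation. Later precursors make the secondary granule proteins, among them the cathelicidin Camp, Ngp, Lcn2 and Ltf, and then the gelatinase granule protein Mmp9. Neutrophils hold little RNA and are brought to tissue by blood.

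The genes lie at 2 places in the genome. In the order of coding genes of the RefSeq annotation (assembly GRCr8), S100a8 and S100a9 were next to each other on chromosome 2, between S100a7a and Pglyrp4, and RatNP-3b was on chromosome 16 in a run of defensin genes next to Defa11, with Np4 beyond it. The RefSeq promoter windows, 250 bases before to 50 after the start of the gene, are shown for S100a9 and RatNP-3b because most barcodes rich in S100a9 held no RatNP-3b, and for Defa11 because it neighbours RatNP-3b. S100a8 had no entry among these windows. All are on the minus strand of GRCr8, at chr2:178490573-178490872 for S100a9, chr16:77248928-77249227 for RatNP-3b and chr16:77237992-77238291 for Defa11. Capitals mark matches to 3 motifs searched on both strands. The first, of the C/EBP type, was spelled TTNNGNAA. The second, of the PU.1 type, was spelled GAGGAA, and the third was the TATA box, spelled TATAAA.
S100a9: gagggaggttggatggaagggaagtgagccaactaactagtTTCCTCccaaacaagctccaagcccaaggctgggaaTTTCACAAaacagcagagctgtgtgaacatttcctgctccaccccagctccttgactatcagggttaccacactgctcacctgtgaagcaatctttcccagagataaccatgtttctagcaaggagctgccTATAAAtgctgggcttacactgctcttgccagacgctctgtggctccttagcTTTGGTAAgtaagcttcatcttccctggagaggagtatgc
RatNP-3b: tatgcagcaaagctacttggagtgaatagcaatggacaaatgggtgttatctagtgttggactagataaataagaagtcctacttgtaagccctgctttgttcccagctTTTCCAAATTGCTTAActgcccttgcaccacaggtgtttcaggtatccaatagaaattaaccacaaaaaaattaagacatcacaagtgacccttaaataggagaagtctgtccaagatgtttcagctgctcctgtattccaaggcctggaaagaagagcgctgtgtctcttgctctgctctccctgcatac
Defa11: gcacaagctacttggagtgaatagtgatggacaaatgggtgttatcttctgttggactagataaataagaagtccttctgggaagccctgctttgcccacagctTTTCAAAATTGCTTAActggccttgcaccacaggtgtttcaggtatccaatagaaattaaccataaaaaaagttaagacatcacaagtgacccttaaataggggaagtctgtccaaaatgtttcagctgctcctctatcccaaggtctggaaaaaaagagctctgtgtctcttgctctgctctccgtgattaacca
The S100a9 window held the C/EBP-type letters at bases -173 to -166 and at bases 11 to 18 from the start, the PU.1-type letters at -209 to -204 and the TATA box at -42 to -37. The RatNP-3b window held a pair of C/EBP-type matches side by side, at -141 to -134 and -133 to -126, and neither of the other motifs. The Defa11 window held the same pair at -146 to -139 and -138 to -131, and was identical to that of RatNP-3b in 273 of 306 aligned columns (89.2%), against 48.6% between RatNP-3b and S100a9. Such matches are common, since 41.3% of 33469 promoter windows held the C/EBP-type letters, 27.6% the PU.1-type letters and 14.2% the TATA box. Because the defensin genes are close copies of each other, reads of RatNP-3b and its neighbours could have been split or dropped in counting, and the level of each single defensin is uncertain to that extent.

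The P1 library held 14068 cell barcodes with 114285848 UMIs (unique molecular identifiers, 1 for each captured mRNA) and the P7 library 14501 barcodes with 101264868 UMIs, at a median of 6486.5 and 6514 UMIs per barcode. The labels name the cells as those of the greater epithelial ridge, but markers of fibrocytes and mesenchyme summed to 12044 CPM (UMIs scaled to a library total of 1000000) at P1 against 182 for epithelial markers, and to 13905 against 341 at P7. The largest of these markers at P1 were Otor (5660 CPM), Crym (2478) and Ccn3 (1709). By in situ hybridization the study reports Otor, Ccn3 and Scara3, another of the list, in the ridge region at P1. The libraries shared 60 barcode sequences.

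At P1 the 3 genes were at similar levels, and at P7 all were lower. S100a8 had 6570 UMIs at P1 and 288 at P7. This was 57.5 CPM (95% exact Poisson interval 56.1 to 58.9) against 2.84 (2.53 to 3.19), a log2 difference of -4.34 (-4.51 to -4.17). S100a9, its partner, had 9871 UMIs at P1 and 485 at P7, or 86.4 CPM (84.7 to 88.1) against 4.79 (4.37 to 5.24), a log2 difference of -4.17 (-4.31 to -4.04). RatNP-3b had 6843 UMIs at P1 and 1 UMI at P7, or 59.9 CPM (58.5 to 61.3) against 0.00988 (0.000250 to 0.0550), and its log2 difference of -12.57 had an interval from -17.87 to -10.09. All intervals cover counting error only. They are too narrow for a comparison of ages, since the UMIs did not come from independent cells but from the few barcodes described next.

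Nearly all barcodes held none of the 3 genes, and those that did fell into separate ranges. At P1, 225 barcodes held 1 UMI summed over the 3 genes, 8 held 2, none held 3 to 9, and 19 held 35 or more. At P7, 96 barcodes held 1 UMI, 14 held 2, 6 held 3 to 9 and 7 held 18 or more. Barcodes with at least 10 summed UMIs are called granule-high here, a limit applied to the genes' own counts. The name stands for this count alone. Most of these barcodes held little or no RatNP-3b and passed through S100a8 and S100a9, which are not granule proteins in the strict sense. The lowest barcode inside it held 35 UMIs at P1 and 18 at P7, and the highest barcode outside it held 2 and 5. The P1 range left a wide gap around the limit and the P7 range a narrower one.

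**Figure D1:**
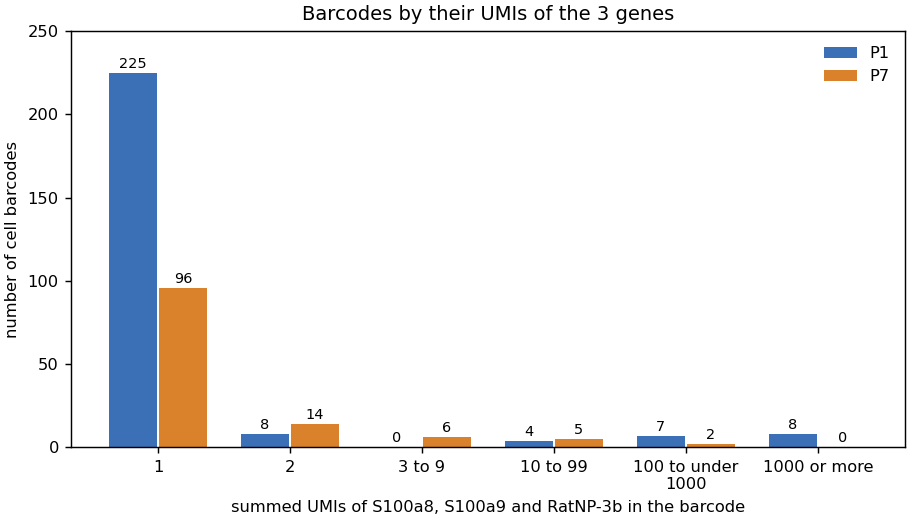
Number of cell barcodes (vertical axis) by their summed UMIs of S100a8, S100a9 and RatNP-3b (horizontal axis) in the P1 and P7 libraries, barcodes with 0 UMIs left out. At P1 the class of 3 to 9 UMIs is empty and the highest class holds 8 barcodes, whereas at P7 the highest class is empty.

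The 19 granule-high barcodes at P1 were 0.135% of the library (95% exact Clopper-Pearson interval 0.0813 to 0.211) and held 23043 of the 23284 UMIs of the 3 genes, or 98.97%. The 7 at P7 were 0.0483% (0.0194 to 0.0994) and held 629 of 774, or 81.3%. The share of such barcodes was thus lower at P7 by a log2 difference of -1.48 (exact interval -2.98 to -0.17), a far smaller step than that of the UMIs. The genes that define these barcodes were chosen as lower at P7. The interval counts the barcodes of 1 library per age as if they were independent, so it is no test of the ages. The UMIs per granule-high barcode were also lower, with a median of 354 at P1 (35 to 7939) and 29 at P7 (18 to 298). A single barcode held 34.1% of all UMIs of the 3 genes at P1 and 38.5% at P7. The 3 genes made up a median of 20.3% of the barcode's own UMIs at P1 (0.863 to 48.3%) and 0.718% at P7 (0.118 to 16.7%), and they reached 10% in 12 barcodes at P1 and 2 at P7.

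Among the P1 barcodes, numbered P1-1 to P1-19 by their summed UMIs, S100a8 ranged from 20 to 1741 UMIs with every barcode above 0, and S100a9 from 9 to 2401. S100a9 exceeded S100a8 in 16 of 19 barcodes, and the median ratio was 1.51. In contrast, RatNP-3b was almost limited to the first pair. P1-1 held 1741 UMIs of S100a8, 2401 of S100a9 and 3797 of RatNP-3b among 16441 in all. P1-2 held 96 of S100a8, 177 of S100a9 and 2992 of RatNP-3b among 10715. Thus P1-1 was rich in all 3 genes, while P1-2 was rich in the defensin with S100a8 and S100a9 far behind. These barcodes held 6789 of the 6843 RatNP-3b UMIs (99.2%). P1-3, the next in rank, held 999 of S100a8, 1719 of S100a9 and 0 of RatNP-3b, and of the other granule-high barcodes only P1-5 held any RatNP-3b, with 3 UMIs. Without P1-1 and P1-2 the log2 difference of RatNP-3b between the ages was -5.58, so that 2 barcodes decide its P1 level.

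At P7 none of the 7 granule-high barcodes, P7-1 to P7-7, held RatNP-3b. P7-1 held 109 UMIs of S100a8 and 189 of S100a9 among 1786, and P7-2 held 85 and 103 among 1332. The genes were 16.7 and 14.1% of the UMIs of these 2 barcodes, against 0.118 to 1.10% in the other 5. Those 5 held 4 to 15 UMIs of S100a8 and 5 to 34 of S100a9 among 2183 to 19463 UMIs in all. They also held UMIs of other cell type lists or a high mitochondrial share. P7-3 held 23 UMIs of Otor, a gene of the fibrocyte and mesenchyme list that was also in 89.6% of the P7 barcodes that were not granule-high. P7-4 had 56.2% mitochondrial UMIs and was outside the limits for kept cells. P7-5 held 170 UMIs of the glia list. P7-6 held 1062 UMIs of Hba-a2, an alpha globin, and 191 of Otor, and P7-7 held 273 of Lyz2 and 45 of Fcnb; both were called doublets, as none of the P1 barcodes was. Such genes were seen in P1 barcodes too, with 46 UMIs of Otor in P1-13 and 69 of the glia list in P1-4. P1-12 held 603 UMIs of Lyz2 and 72 of Fcnb. Whether the S100a8 and S100a9 UMIs of the 5 P7 barcodes, or of these at P1, belong to the same cell as the other genes was not tested.

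**Figure D2:**
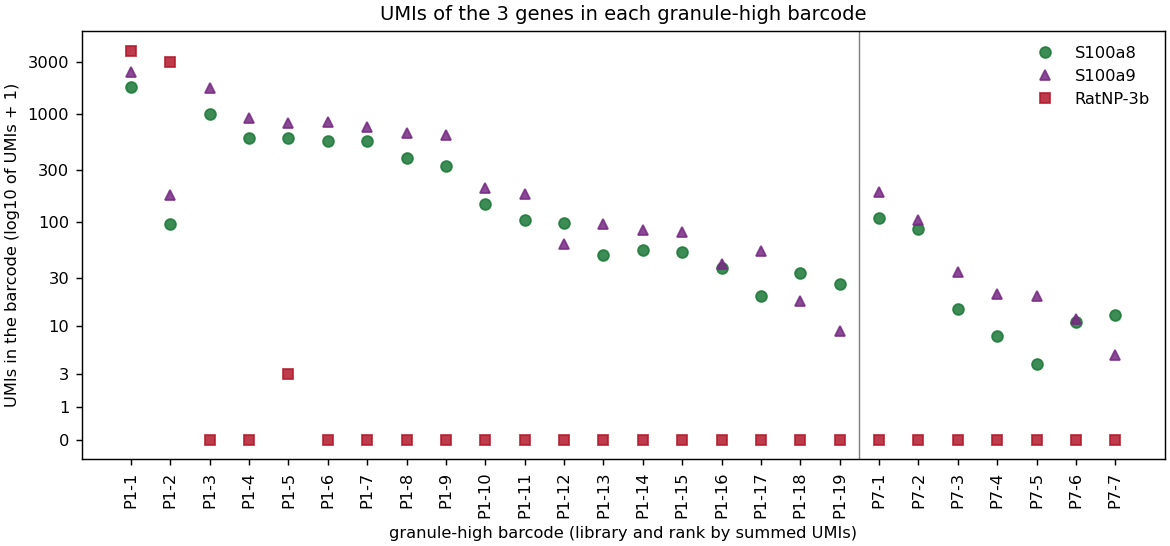
UMIs of S100a8 (circles), S100a9 (triangles) and RatNP-3b (squares) in each granule-high barcode, on a log10 axis of UMIs + 1, with the 19 P1 barcodes left of the line and the 7 P7 barcodes right of it. RatNP-3b is high in P1-1 and P1-2 alone, and S100a8 and S100a9 descend together over the P1 barcodes.

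At P1 the barcodes rich in S100a8 were also rich in S100a9, and 2 of them were rich in RatNP-3b. At P1, 92 barcodes held S100a8 (0.654%), 130 held S100a9 (0.924%) and 54 held RatNP-3b (0.384%). Of the 92 with S100a8, 21 also held S100a9 (22.8%), against 0.780% of the barcodes without S100a8. Of the 54 with RatNP-3b, 3 held S100a8 and the same number S100a9. With a limit of 3 UMIs per gene, 16 barcodes at P1 held both S100a8 and S100a9, 3 held all 3 genes, and none held a single gene. At P7, 7 held both S100a8 and S100a9, 5 held S100a9 alone and 1 held S100a8 alone. At P7, 46 barcodes held S100a8 (0.317%), 87 held S100a9 (0.600%) and 1 held RatNP-3b (0.00690%), and 11 of the 46 with S100a8 also held S100a9 (23.9%), against 0.526% of those without. Across the 14068 barcodes of P1, which share 1 library, the log values of S100a8 and S100a9 had a Pearson r of 0.886, and of 0.012 once the 19 granule-high barcodes were left out. At P7 r was 0.631 over 14501 barcodes and 0.069 without the 7. The barcodes left out were defined by the sum of these same genes, so a lower r without them was set in advance. Outside the granule-high barcodes, 2 of 73 barcodes with S100a8 also held S100a9 at P1 (2.74%, against 0.780% of those without S100a8), and 4 of 39 at P7 (10.3%, against 0.526%).

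Outside the granule-high barcodes the 3 genes were at a low level, and the difference between ages was small for the S100 pair. S100a8 had 73 UMIs at P1 and 43 at P7, 0.639 and 0.425 CPM, a log2 difference of -0.59 (-1.17 to -0.03). S100a9 had 117 and 101 UMIs, 1.02 and 0.998 CPM, a log2 difference of -0.04 (-0.44 to 0.36). RatNP-3b had 51 UMIs and 1 UMI, 0.447 and 0.00988 CPM, a log2 difference of -5.50 (-10.83 to -2.96). At P1 these UMIs held S100a9 and S100a8 at a ratio of 1.60, against 1.501 in the granule-high barcodes, and RatNP-3b was 21.2% of the 3 genes against 29.5%. At P7 the ratio was 2.35 outside and 1.57 in the granule-high barcodes. None of the 51 barcodes with a single RatNP-3b UMI held S100a8 or S100a9. Free RNA in the suspension can give such single UMIs, but its level was not measured and this source was not tested. Glia-like cells were taken to lack all 3 genes. Of these cells, 1.07% held a UMI of any of the genes at P1 and 0.673% at P7, and shares near these are read as background. Their median depth, 4206 and 4796 UMIs, was the lowest of any class, so deeper cells can show higher shares at the same level. At P1 the 3 genes summed to 2.07 CPM in glia-like cells and 2.01 in cells given no name, whose share was 1.48%. After every barcode was thinned to 2000 UMIs, which left out 938 barcodes at P1 and 1803 at P7, the shares with a UMI were 0.267 and 0.134% for S100a8, 0.396 and 0.291% for S100a9, and 0.122 and 0% for RatNP-3b, where 0 of 12698 barcodes has an exact interval up to 0.0290%.

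**Figure D3:**
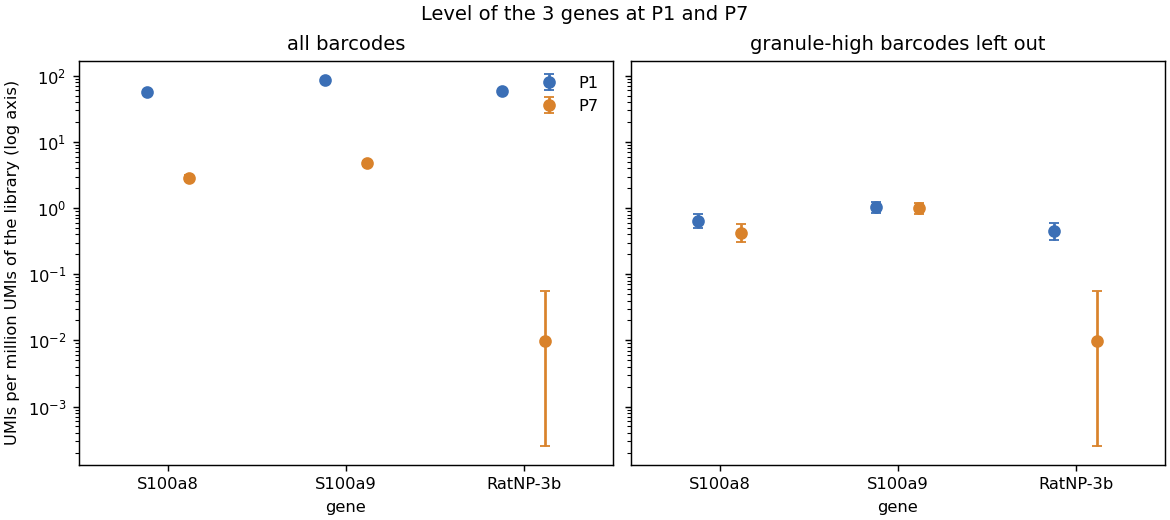
Level of each gene in CPM on a log axis, at P1 and P7, over all barcodes (left) and with the granule-high barcodes left out (right), with 95% exact Poisson intervals that cover counting error only. Without the granule-high barcodes S100a9 is at 1.02 and 0.998 CPM, and the P7 value of RatNP-3b is 1 UMI in both panels.

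The granule-high barcodes were then described by genes that did not choose them. Of 28 genes of a list of neutrophil granule and secreted proteins found in the files, 13 were detected in at least 25% of the 19 P1 barcodes, and 8 had no UMI there. Among all 32623 genes, 5.76% were detected in that many of the P1 barcodes and 10.97% in that many of the 7 at P7. The list summed to 65025 CPM in the P1 granule-high barcodes and 36.6 CPM in the others. Camp had 1359 of its 1377 P1 UMIs in them (98.7%). Ngp had 97.6%, the collagenase Mmp8 97.3%, and the matrix glycoprotein Olfm4 100%, in 5, 8 and 7 of the 19 barcodes. Serpinb1a, an inhibitor of neutrophil proteases, and Chi3l1 were each detected in 17 of the 19, with 24.6 and 9.28% of their UMIs in these barcodes, Slpi, an antiprotease, in 13, and the peptidoglycan-binding Pglyrp1 in 12. Lcn2, which binds bacterial siderophores, was in 8, Mmp9 and Cd177 were in 7 each (10.3 and 70.3% of their UMIs), Fcnb was in 6 and Np4 was in 5. Ltf, the marker of secondary granules, and Prtn3, a primary granule protease, were at 0 UMIs.

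Of 30 genes of a list of neutrophil surface and signalling proteins, 22 were detected in at least 25% of the P1 granule-high barcodes. Alox5ap, needed for leukotriene synthesis, and Cyba, a subunit of the phagocyte oxidase, were in all 19, with 16.9 and 0.930% of their P1 UMIs there, since Cyba was in 66.6% of the other barcodes too. Mcemp1 was in 17, Anxa1 in 16 and the oxidase subunits Ncf4 and Cybb in 14 and 12. Their shares of P1 UMIs there were 79.3, 17.9, 7.33 and 6.54%. The stefins Stfa2, Stfa2l1 and Stfa3, which inhibit cysteine proteases, and Retnlg had 97.2 to 99.1% of their P1 UMIs in these barcodes. The adhesion gene Itgb2 was in 11 (15.9% of its UMIs), and 10 others (Lilrb3a, Il1r2, Trem1, Il1b, Ncf1, Fpr2, G0s2, Csf3r, Padi4 and Clec4d) were detected in 5 to 10. The shares of these 10 ran from 2.90% (G0s2) to 84.6% (Fpr2). At P7, 11 and 19 genes of the 2 lists were detected in at least 25% of the 7 barcodes, with Camp in 6 of them (84.2% of its UMIs) and Mmp8 in 5 (100%).

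Markers of other blood cells were measured in the same barcodes. The general leukocyte list was at 15838 CPM in the P1 granule-high barcodes against 162 in the others, with Tyrobp and Fcer1g, adaptors of myeloid receptors, in all 19. The macrophage list was at 19828 against 360 CPM, but 10 of its 15 genes had no UMI, and nearly all of the sum was Lyz2, the lysozyme shared by neutrophils and macrophages, with 2178 UMIs. Of its other genes Aif1 was in 10 of the 19 barcodes (35 UMIs), Cd68 in 6 (30 UMIs) and Csf1r in 3 (7 UMIs). The monocyte list was at 1612 against 149 CPM, mostly through Fcnb (1533 CPM), which is in the granule list too. The complement genes C1qa and C1qb, among the strongest macrophage genes of the cochlea, were at 0 in all 26 granule-high barcodes of both ages. C1qc had 2 UMIs, in 1 P7 barcode. The mast cell and platelet lists were at 0 in the 19 P1 barcodes. In a clustering made without the 3 genes and the listed genes, all 19 P1 barcodes and 4 of the 6 kept P7 barcodes fell in a cluster named macrophage-like from its markers. It held 189 cells at P1 and 175 at P7, with 99.1 and 73.9% of the genes' UMIs in kept cells, and its other cells held the C1q genes.

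The barcodes also differed in which granule genes they held. The defensins went with RatNP-3b, since P1-1 and P1-2 held 2079 of 2120 UMIs of Np4 (98.1%), 1653 of 1675 of Defa5 (98.7%) and 80 of 81 of Defa11 (98.8%). P1-2 was also the only granule-high barcode with the primary granule proteases and peroxidase, with 53 UMIs of Mpo, 12 of Ctsg and 10 of Elane, and P1-1 was the one of the pair with Camp in number, 504 UMIs. Neither held Ngp, Mmp8 or a stefin, which had 368 and 110 UMIs and 278 to 361 UMIs per stefin in the other 17 barcodes. Each of these patterns rests on 2 barcodes and is given as a description.

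A further difference, chosen after the values were seen, followed Fcnb, which encodes ficolin B, a lectin of immature myeloid cells. At P1, 6 of the 19 barcodes held Fcnb, with 3 to 72 UMIs. These 6 held 681 UMIs of the 3 genes, at 0.863 to 4.84% of their own UMIs, and S100a9 was below S100a8 in 3 of them. They held Lyz2 at 215 to 637 UMIs per 10000, 7 UMIs of the macrophage and monocyte receptor Csf1r in 3 barcodes, 2 UMIs of Camp, and no Ngp, Lcn2, Mmp8, Retnlg or stefin. The 13 without Fcnb held 22362 UMIs of the 3 genes, at 1.80 to 48.3% of their own, with a ratio of S100a9 to S100a8 of 1.35 to 1.94. They held Camp in all 13 barcodes (1357 UMIs), Stfa3 in 10, no Csf1r, and Lyz2 at 16.8 to 220 per 10000. The ranges of Lyz2 and of the genes' own share overlapped between the groups at one end each. At P7 the single barcode with Fcnb, P7-7, likewise held a Csf1r UMI and no Camp, with S100a9 to S100a8 at 0.385. The barcodes with Fcnb, at both ages, are called granule-high through their S100a8 and S100a9 UMIs alone.

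**Figure D4:**
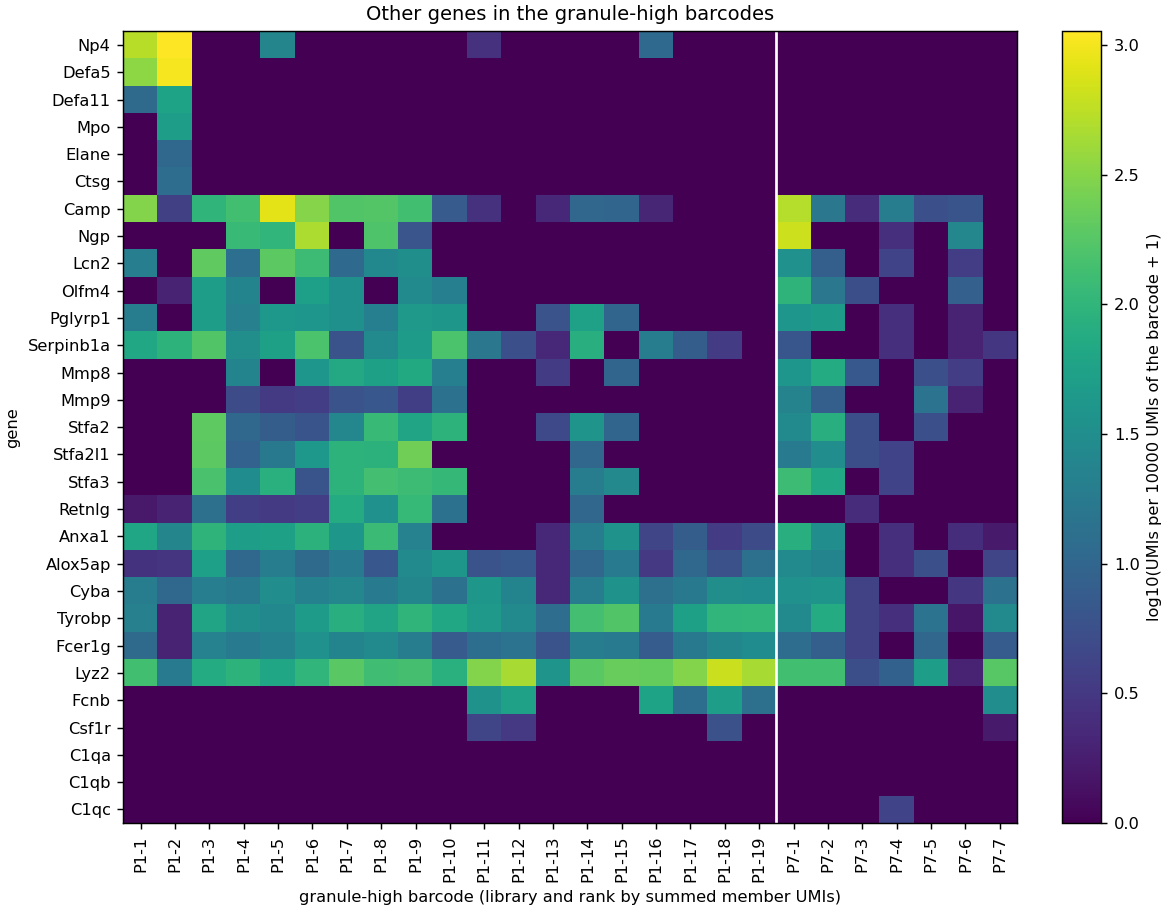
Levels of 29 other genes (rows) in each granule-high barcode (columns, P1 left and P7 right of the white line), as log10 of UMIs per 10000 UMIs of the barcode + 1. Np4, Defa5 and Defa11 are bright in P1-1 and P1-2, the stefins and Ngp in barcodes without Fcnb, and C1qa and C1qb are at 0 throughout.

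The genes whose pattern over barcodes was most like the sum of the 3 genes were named by Pearson r, among 14067 genes at P1. They were Camp (0.753), LOC689230 (0.751), MGC105649 (0.741), AABR07034362 (0.715), Mcemp1 (0.704), Stfa3 (0.703), Stfa2 (0.703), Napsa (0.702), Retnlg (0.658) and Stfa2l1 (0.619). Napsa, an aspartic protease, and MGC105649 were the ones detected in most granule-high barcodes, 19 and 18 of 19. At P7, among 13584 genes, LOC689230 (0.623), AABR07034362 (0.579), Camp (0.545), LOC24906 (0.471), Ngp (0.344), Napsa (0.321), MGC105649 (0.315), Degs2 (0.252), Lrg1 (0.242) and Ncf4 (0.224) led. The P7 values were computed over 14501 barcodes, of which 7 were granule-high, and those after Ngp are weak. Napsa, MGC105649, Degs2, Lrg1 and Ncf4 had 5.05 to 14.1% of their P7 UMIs in these 7.

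S100a9 was detected most often in 1 class of cells outside the granule-high barcodes. In pericyte-like cells, the mural cells of capillaries marked here by Rgs5, Kcnj8 and Abcc9, 10 of 329 held S100a9 at P1 (3.04%, 1.47 to 5.52), against 0.724% (0.583 to 0.889) of the other kept cells. At P7 18 of 284 did (6.34%, 3.80 to 9.83), against 0.407% (0.302 to 0.536). Their UMIs were mostly S100a9, 12 against 1 of S100a8 at P1 and 29 against 5 at P7, or 92.3% (64.0 to 99.8) and 85.3% (68.9 to 95.05) of the pair. In the other cells the share was 61.2% (53.0 to 69.0) at P1 and 66.7% at P7, and in the granule-high barcodes 60.0 and 61.0%. The pericyte-like cells were no deeper than the others, with medians of 5218 against 6623 UMIs at P1 and 5851 against 6906 at P7, and after thinning the shares were 1.87 against 0.230% at P1 and 2.62 against 0.190% at P7. S100a8 in this class was at 0.531 CPM (0.0134 to 2.96) at P1 and 2.67 (0.868 to 6.24) at P7, against 0.920 and 0.405 in the glia-like cells. The class joined 2 clusters that were not alike. The larger held S100a9 in 10 of 287 cells at P1 and 13 of 255 at P7, and the smaller in 0 of 42 (0 to 8.41%) and 5 of 29 (17.2%, 5.85 to 35.8), where S100a9 was 7 of 10 UMIs of the pair. No pericyte-like cell held more than 4 UMIs of S100a9. The class was singled out after its values were seen.

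**Figure D5:**
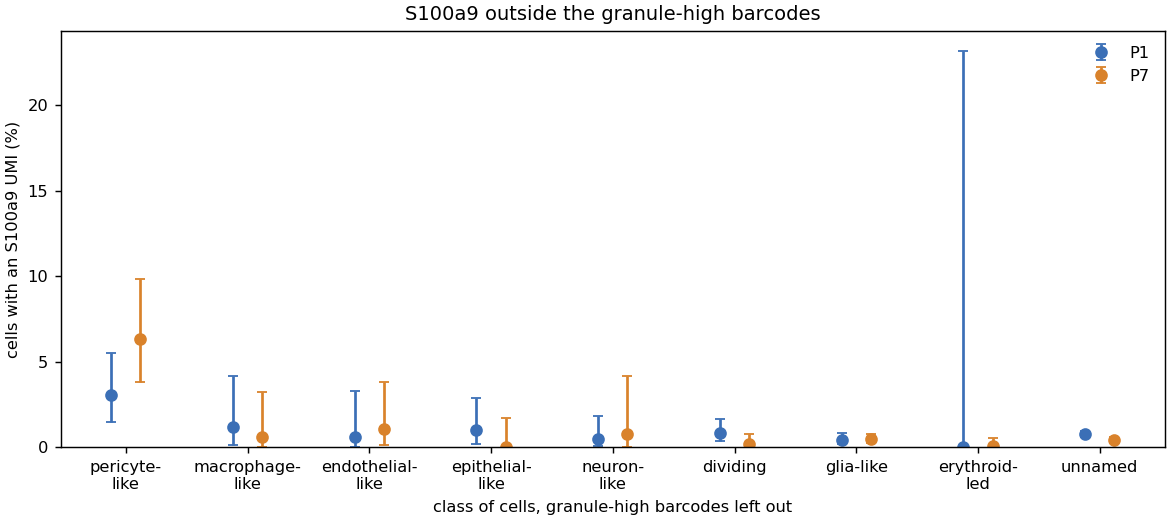
Percent of kept cells with an S100a9 UMI by class of cells at P1 and P7, with 95% exact Clopper-Pearson intervals and the granule-high barcodes left out. The pericyte-like class is at 3.04 and 6.34%, while in the glia-like and the unnamed cells both ages are below 1%. The erythroid-led class held 14 cells at P1, hence its wide interval.

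Other genes of neutrophil biology were compared between the ages over whole libraries. Of 8277 genes at 10 CPM or more in either library, 4.69% were lower at P7 by at least 2-fold with a pseudocount of 5 CPM, and 5.11% were higher, with a median log2 difference of 0.06 over all. The 3 genes, whose choice used this contrast, were all lower, and nothing is read from that count. Of the granule list 5 genes could be compared, and 3 were lower. These were Camp (12.05 CPM at P1 and 1.37 at P7), Np4 (18.6 and 0) and Defa5 (14.7 and 0, where 0 UMIs allow up to 0.0296 CPM), whose UMIs lay in the same barcodes as those of the 3 genes and are no independent evidence. Chi3l1, a secreted chitinase-like protein, was higher (7.82 and 25.2 CPM), and its change lay outside the granule-high barcodes, at 7.10 and 25.03 CPM. Below the limit, Ngp had 377 UMIs at P1 and 192 at P7, Lcn2 1056 and 555, Mmp8 113 and 27, and Retnlg 106 and 1. Others below it had more UMIs at P7, such as Mmp9 (116 and 223), Prtn3 (230 and 310) and Ncf1 (198 and 301). At P7 the granule-high barcodes held 4.48% of the Mmp9 UMIs, 0% of Prtn3 and 2.99% of Ncf1. They held 86.5% of Ngp, 2.52% of Lcn2, and 100% of Mmp8 and of Retnlg. Of the 20 genes of the granule list below the limit with any UMI, the counting interval of the log2 difference lay below 0 for 10, above 0 for 4 and held 0 for 6, and of 25 such genes of the surface list for 14, 3 and 8. No such count is given over all genes below the limit. Several of these genes had most of their P1 UMIs in the same granule-high barcodes, so nothing is read from these counts. Of the surface list 3 genes could be compared, none was lower and G0s2, an inhibitor of fat breakdown, was higher (7.54 and 38.8 CPM), again outside the granule-high barcodes.

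Of 7 comparable genes for signals that draw or hold neutrophils, 2 were lower at P7 and 1 was higher. The chemokines Cxcl1, which attracts neutrophils through Cxcr2, and Ccl3 were at 17.8 and 11.5 CPM at P1 and at 1.31 and 2.70 at P7. Cxcr4, which holds neutrophils in bone marrow, was at 3.08 and 14.7 CPM, and its ligand Cxcl12 at 41.7 and 33.6, short of 2-fold. Outside the granule-high barcodes Cxcl1 was at 17.8 and 1.31 CPM, Ccl3 at 11.3 and 2.68, and Cxcr4 at 2.95 and 14.7. Of the receptors of S100a8 and S100a9, only Bsg could be compared, at 832 and 1030 CPM. None of 8 comparable genes of the same family was lower, against 4.69% of all comparable genes. S100a6 (27.5 and 149 CPM) and S100b (531 and 1120 CPM) were higher, with most of their UMIs outside the granule-high barcodes. The direction of S100a8 and S100a9 was part of their choice, so it is not set against that of their family.

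Markers of other blood cells moved in several directions. The leukocyte list was at 177 CPM at P1 and 180 at P7, and the macrophage list at 379 and 361, with no gene of either past 2-fold among 6 and 10 compared. The erythroid list, led by globin genes, was at 1712 and 6312 CPM, with 6 of 6 compared rows higher at P7. The mast cell list rose from 7.85 to 47.4 CPM through Kit, which other cells use too. Its other 8 genes summed to 324 UMIs at P1 and 19 at P7, among them the mast cell proteases Cma1 (122 and 2), Tpsb2 (114 and 0) and Cpa3 (40 and 3), although none of the mast cell list was found in the P1 granule-high barcodes. These UMIs lay in very few barcodes. Of the P1 barcodes that were not granule-high, 0.0356% held Cma1, 0.0142% Tpsb2 and 0.00712% Cpa3, so no change in mast cells is read from them. The part of mast cells in the result was not tested. How far the blood left in the tissue, the lysis of red cells or the dissection of each age shaped the number of granule-high barcodes was not tested, and age and library cannot be told apart.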

How the data were processed

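Single-cell RNA-seq (10x Chromium 3′) was measured in 1 library of rat cochlear duct at P1 and 1 at P7. The authors dissociated the tissue, lysed red blood cells, removed dead cells, and aligned and counted reads with Cell Ranger 3.1.0 on the rn6 genome. The deposited values are raw UMI counts per gene and barcode, with no normalization. All 3 genes, all lists and the limits were chosen with earlier results of these data known.

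All deposited barcodes were used for levels, shares and granule-high barcodes (at least 10 summed UMIs), since a limit on genes can drop small cells. The study's limits (genes above 500 and below 5000, 500 UMIs, mitochondrial share below 25%) left 12779 kept cells at P1 and 12581 at P7. Levels are in CPM with exact Poisson intervals, ratios have exact conditional binomial intervals and shares Clopper-Pearson intervals, at 95%, for counting error only. With 1 library per age no p-value was computed. Depth was a median of 6486.5 UMIs per barcode at P1 and 6514 at P7, so 1 UMI is near the limit of detection.

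Kept cells were clustered with Seurat 5.3.0 (10 components, 20 neighbours, resolution 0.8) on 1830 of 2000 variable genes, without the 3 genes and the listed genes, and clusters were named from marker lists. Most cells stayed unnamed, and names may differ from those of the study. Doublets were marked with Scrublet (scanpy 1.11.5), 692 at P1 and 844 at P7, and left out only as an alternative. Genes were compared between ages at 10 CPM or more with a pseudocount of 5 CPM and a limit of 2-fold. The scripts were tested on simulated data. Promoter windows came from RefSeq.

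Genes are named if they are 1 of the 3, among the 10 with the highest Pearson r to their sum in a library (at least 50 UMIs), past 2-fold in a list of neutrophil biology, or of a neutrophil list and in at least 25% of granule-high barcodes; others are named as markers or as single features after their values were seen. A gene that the rule would name is not reported here.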

Additional observations from a re-analysis of the deposited data

How the results depend on the processing

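Of 104 alternative values, 74 stayed within the counting interval or, for numbers of genes and barcodes, within 1.5 times, and 30 moved. None changed direction, but only the log2 differences could, since the other values are counts or shares. For S100a8 the log2 difference between ages was -4.56 per barcode in place of per UMI, -4.53 in kept cells, -4.58 without the top barcode of each library and -0.59 without the granule-high barcodes. For S100a9 these were -4.39, -4.39, -4.48 and -0.038, the last with an interval of -0.44 to 0.36. For RatNP-3b it was -5.50 without the granule-high barcodes and -5.58 without the 2 barcodes rich in it, an alternative added after seeing the data. With a pseudocount of 1 CPM, 664 genes were higher and 607 lower, against 423 and 388, and in kept cells 288 were lower. With a limit of 2 UMIs the shares of barcodes at P1 and P7 were 0.135 and 0.0690% for S100a8, 0.178 and 0.152% for S100a9, and 0.0213 and 0% for RatNP-3b; thinned to 2000 UMIs they were 0.267 and 0.134%, 0.396 and 0.291%, and 0.122 and 0%. RatNP-3b at P7 was at 0% without doublets. The granule-high barcodes held 99.1% of the UMIs in kept cells at P1, and 99.2% at P1 and 86.6% at P7 with under 10% mitochondrial UMIs. A limit of 10% of a barcode's own UMIs, also added after seeing the data, gave 12 barcodes at P1 and 2 at P7. The causes of these shifts were not tested, other than those the left-out barcodes or reduced depth make by construction.

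No paired analysis was possible because each age has 1 library, and for the same reason no replicate could be left out. The number of granule-high barcodes, 19 and 7, limits every statement on them. Shares of single UMIs are read against those of glia-like cells, the class of lowest depth, since free RNA was not measured.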
